A study of Mus musculus with 21 samples.

Results

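The Kruppel-like factors are zinc finger transcription factors that bind GC-rich and CACCC-type DNA, and 7 of their genes are described here: Klf2, Klf3, Klf4, Klf6, Klf7, Klf10 and Klf13. They were found by matching the Ensembl IDs of the deposited raw table, without version numbers, to mouse symbols, which gave 7 of 23250 genes in the table. The cells were macrophages grown from C57BL/6J mouse marrow for 7 days in medium with supernatant of a line that makes GM-CSF, a cytokine under which marrow yields macrophage-like and dendritic-like cells. The series describes all of them, controls included, as lacking the mannose receptor, an endocytic receptor encoded by Mrc1. One group was harvested untreated at 0 h, and the others received FcMR, a fusion of the extracellular region of the mannose receptor with the Fc region of human IgG1, or an isotype control, for 4, 12 or 24 h. Each of the 7 groups held 3 libraries, 21 in all. The labels do not say whether these came from separate mice or cultures, so the p-values measure the spread between libraries, which may be technical.

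Members of this family differ in what they do once bound to DNA. Klf2, Klf4, Klf6 and Klf7 carry activation domains, whereas Klf3 recruits the corepressor CtBP, and Klf10 and Klf13 recruit the corepressor Sin3A. In macrophages Klf2 and Klf4 are known as brakes on inflammatory gene expression, and Klf4 also for monocyte differentiation and alternative activation. Klf6 is known for promoting inflammatory gene expression. In endothelium, transcription of Klf2 and Klf4 is driven by the kinase ERK5 through MEF2 factors.

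Library totals ran from 5532225 to 66729533 counts, and 3 counts corresponded to 0.0454 to 0.559 CPM (a count relative to the library's total, scaled with TMM factors), a limit of counting error only. Mrc1 had 0 to 11 counts in the 21 libraries. Summed macrophage markers stood at 19700 to 35100 CPM in every library, against at most 8.13 CPM for B cell markers and 4.06 CPM for T cell markers, while dendritic cell markers, part of what GM-CSF cultures are known to hold, summed to 2040 to 3800 CPM. Granulocyte markers fell from 377 to 429 CPM in untreated libraries to 36.8 to 53.4 CPM with isotype and 16.3 to 27.5 with FcMR at 24 h. In bulk RNA, fewer cells of a type and less RNA per cell cannot be told apart. The libraries also differed in GC tilt, the mean log2 deviation of the GC-richest genes minus that of the GC-poorest (top and bottom 10% by transcript GC), which ran from -1.59 to 0.834. FcMR 12 h replicate 1 (-0.718) and isotype 4 h replicate 3 (0.631) were opposite in sign to the rest of their groups. These are the libraries whose titles are numbered out of order. The tilt is given beside Klf2, Klf4, Klf6 and Klf13, but other members can vary with it too. Klf3, for one, fell as the tilt rose within isotype 4 h and FcMR 24 h, but not within FcMR 12 h.

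Promoter sequence was available for 6 of the 7 members. The 250 bases before the RefSeq start are shown for Klf2 and Klf4, the pair described as ERK5 and MEF2 targets, and for Klf6, the most abundant member, because these hold different elements (RefSeq, GRCm38.p6, each 5′ to 3′ on the gene's strand). Klf2 lies at chr8:72318812-72319061 (+), Klf4 at chr4:55532476-55532725 (-) and Klf6 at chr13:5861239-5861488 (+). Capitals mark matches on either strand to GGGCGG (GC box), CACCC, CTANNNNTAG (MEF2-type site), CCAAT and CACGTG (E-box), and matches may share bases.
Klf2: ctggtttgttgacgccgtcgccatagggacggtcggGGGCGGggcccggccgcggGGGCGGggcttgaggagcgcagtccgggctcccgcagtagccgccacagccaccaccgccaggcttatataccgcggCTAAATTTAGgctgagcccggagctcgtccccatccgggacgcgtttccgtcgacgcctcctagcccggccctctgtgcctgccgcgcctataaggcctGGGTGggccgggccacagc
Klf4: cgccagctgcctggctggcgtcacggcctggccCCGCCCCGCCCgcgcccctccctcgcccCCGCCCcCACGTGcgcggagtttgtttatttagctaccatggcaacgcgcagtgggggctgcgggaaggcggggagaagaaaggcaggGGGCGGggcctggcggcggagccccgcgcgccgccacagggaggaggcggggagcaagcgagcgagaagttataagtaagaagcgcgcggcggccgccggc
Klf6: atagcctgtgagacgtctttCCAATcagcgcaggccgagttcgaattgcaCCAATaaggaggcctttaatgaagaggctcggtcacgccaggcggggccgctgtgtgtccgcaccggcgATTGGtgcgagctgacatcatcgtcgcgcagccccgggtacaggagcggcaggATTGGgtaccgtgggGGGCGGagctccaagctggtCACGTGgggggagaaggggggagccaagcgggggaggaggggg
The Klf2 window held the MEF2-type letters once, 118 bases before the start, and they were in none of the other 5 windows. Of 32851 mouse promoter windows of this length, 3.2% held them. Klf6 alone among the 6 held 4 CCAAT matches, and 33.8% of all windows held at least 1.

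GC boxes were matched in all 6 windows, between 1 and 6 times, against 32.7% of all windows with a match. Klf3, with 6 GC boxes and 5 CACCC matches, held the most of both. The E-box letters were matched once each in Klf4 and Klf6 and in 6.02% of all windows. CACCC was absent from the Klf4 and Klf6 windows and present in 52.0% of all. GC content was 71.2% for Klf2, 78.4% for Klf3, 74.0% for Klf4, 64.8% for Klf6, 59.2% for Klf7 and 71.6% for Klf13, against a median of 52.4% over all windows. No member's window matched the consensus of NF-kB, the CArG box of serum response factor or the cAMP response element TGACGTCA in these letters.

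The genes lie on 7 chromosomes (GENCODE M21, GRCm38): Klf2 (ENSMUSG00000055148.7) at chr8:72319033-72321656 (+), Klf3 (ENSMUSG00000029178.14) at chr5:64803388-64832901 (+), Klf4 (ENSMUSG00000003032.8) at chr4:55527143-55532466 (-), Klf6 (ENSMUSG00000000078.7) at chr13:5861482-5870394 (+). The others are Klf7 (ENSMUSG00000025959.13) at chr1:64029447-64122282 (-), Klf10 (ENSMUSG00000037465.10) at chr15:38291463-38300706 (-), Klf13 (ENSMUSG00000052040.10) at chr7:63886351-63938915 (-).

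By level the family was dominated by one gene. Per kb of annotated exon, untreated libraries held 83.0 CPM of Klf6, 12.7 of Klf10, 10.4 of Klf13, 7.93 of Klf4, 4.32 of Klf2, 3.93 of Klf3 and 3.90 of Klf7, each as the mean of 3 libraries. Klf6 led in all 7 groups. After 24 h with FcMR the order below it had changed to Klf13 (11.5 CPM per kb), Klf10 (5.75), Klf7 (5.58), Klf3 (3.22), Klf4 (2.42) and Klf2 (0.638). The length used was that of all annotated exons merged, 11243 bases for Klf3, whose longest transcript has 5221. The order below Klf6 can change with the length used. Untreated Klf3 and Klf7 were not apart, with SDs of 0.188 and 0.236 CPM per kb. By raw CPM, without length, Klf6 lay at the 97.3rd percentile of the 13468 genes tested and Klf2 at the 23.4th.

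**Figure D1:**
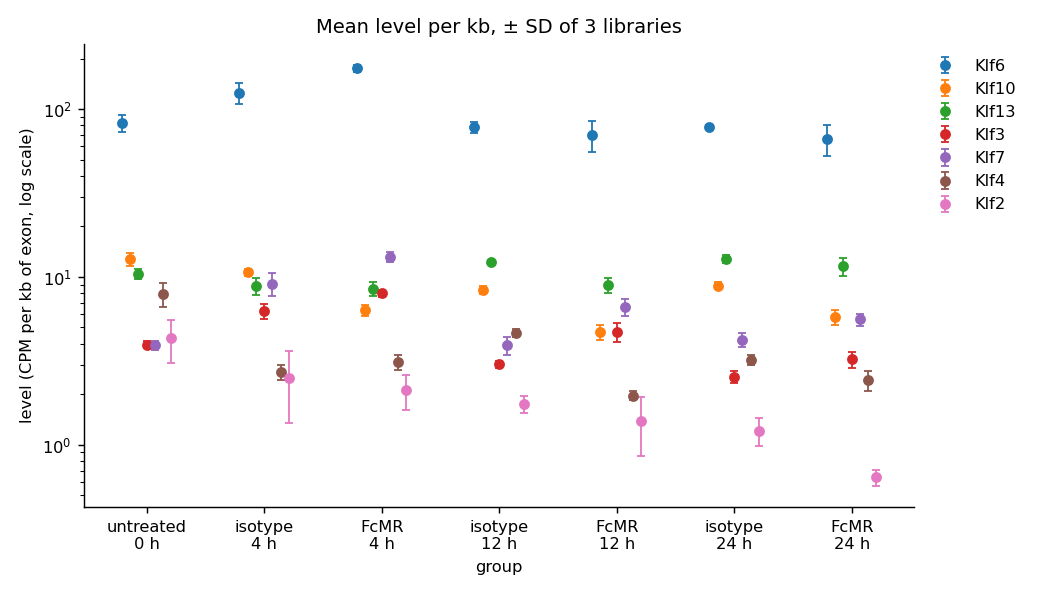
Mean level of each gene in CPM per kb of exon on a log axis, by group, with bars of 1 SD over 3 libraries. Klf6 sits above every other member in each group, and Klf2 moves from 4.32 CPM per kb in untreated cells to 0.638 with FcMR at 24 h.

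The main question of the design was what the mannose receptor fusion changed beyond the isotype control. Against isotype at the same time, Klf3 and Klf7 were higher and Klf10 was lower with FcMR at 4, 12 and 24 h. Klf6 was higher at 4 h only, and Klf4 and Klf13 were lower at 12 h only, by the threshold. With edgeR's quasi-likelihood test and Benjamini-Hochberg adjustment over 13468 genes, 4 of 7 members were called at 4 h (adjusted p under 0.05; 3 higher, 1 lower), against 17.7% of all genes tested (8.62% higher, 9.13% lower). At 12 h 5 members were called (2 higher, 3 lower), against 16.1% of all genes (8.61% higher, 7.49% lower). At 24 h 3 were called (2 higher, 1 lower), against 20.9% (11.4% higher, 9.44% lower). The 3 libraries of FcMR and the 3 of isotype did not overlap for 4, 5 and 5 members at 4, 12 and 24 h, against 29.8%, 35.5% and 34.4% of all genes. With 7 genes chosen with earlier results known, these counts describe the members and are not a test of the family.

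**Figure D2:**
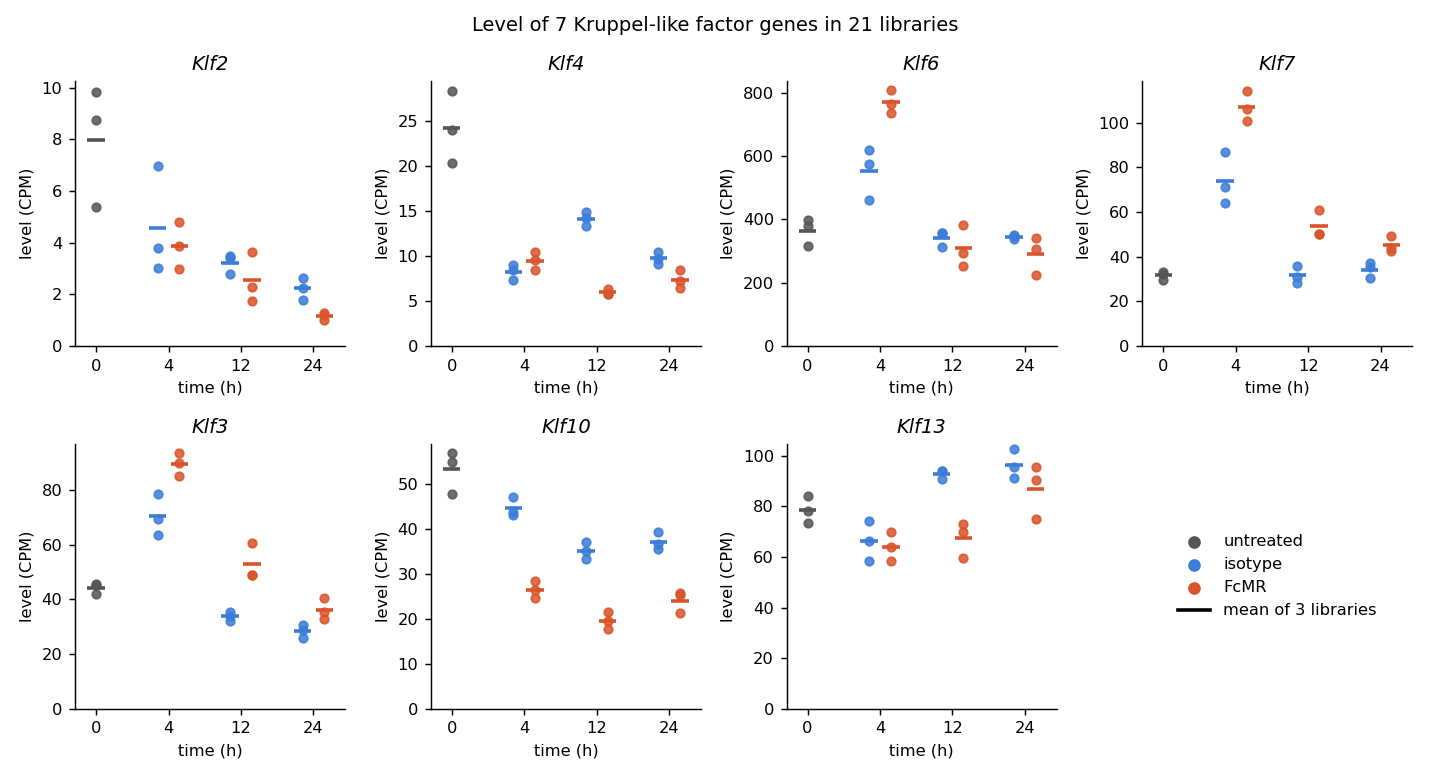
Level of each gene in CPM (vertical axis, from 0) in each of 21 libraries at 0, 4, 12 and 24 h, with bars at the mean of 3. Klf10 with FcMR lies below every isotype library at each time, Klf3 and Klf7 with FcMR lie above, and Klf4 separates most at 12 h.

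Klf2, which keeps endothelium and T cells quiescent, had the lowest CPM of the members and was lower than untreated at 12 and 24 h in both arms. Untreated libraries held 9.81, 5.38 and 8.75 CPM. Isotype libraries held 3.02, 3.79 and 6.95 CPM at 4 h, 3.48, 2.79 and 3.41 at 12 h, and 2.65, 2.25 and 1.8 at 24 h. FcMR libraries held 4.82, 3.87 and 2.98 CPM at 4 h, 2.28, 1.75 and 3.64 at 12 h, and 1.03, 1.29 and 1.22 at 24 h. At 4 and 12 h the treated groups overlapped, and at 24 h all 3 FcMR libraries lay below all 3 isotype libraries.

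In order of mean level, the 7 groups ran from untreated through both 4 h groups and both 12 h groups to isotype and then FcMR at 24 h, and each neighbouring pair overlapped except the last. Against untreated, isotype Klf2 was 0.77 lower on the log2 scale at 4 h (SE 0.31, adjusted p = 0.0627), not called. It was called without isotype replicate 3 (-1.22, adjusted p = 0.00633) or without untreated replicate 2. Over all alternatives this 4 h value ran from -1.22 to -0.005, with adjusted p from 0.00593 to 0.993. Isotype Klf2 was lower by a log2 change of -1.27 at 12 h (adjusted p = 0.00248) and -1.81 at 24 h (adjusted p = 2.1e-04). FcMR against the same untreated libraries gave -1.0, -1.60 and -2.72, all called. The first was not called without untreated replicate 1 (adjusted p = 0.0593) or with GC correction (-0.19, adjusted p = 0.645, and -0.25 on the longest transcript, adjusted p = 0.543). Over all alternatives the 24 h value with FcMR ran from -2.95 to -1.56 and stayed called. Granulocyte markers declined over the same hours, and their part in this was not tested.

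Between FcMR and isotype, Klf2 differed by -0.23 ± 0.32 (SE) at 4 h, -0.33 ± 0.31 at 12 h and -0.91 ± 0.36 at 24 h on the log2 scale, none past the threshold (adjusted p = 0.695, 0.595 and 0.0894). The 24 h groups of 3 did not overlap, as was the case for many genes (34.4%). Klf2 had 10 to 225 counts per library. Summed granulocyte markers at 24 h were also lower with FcMR (16.3 to 27.5 CPM) than with isotype (36.8 to 53.4), most of it Ngp (group means of 13.8 against 26.0 CPM). Of the 8 granulocyte markers, 2 were called, both lower, and Camp stood higher with FcMR (2.99 against 2.08 CPM). The macrophage marker sum was lower too (25200 to 27100 against 31000 to 35100), most of it Lyz2 (group means of 21700 against 28100 CPM). Adgre1 went the other way (1500 against 836 CPM), and Csf1r was at 974 against 930. Of the 7 macrophage markers, 4 were called lower and 1 higher at 24 h, against 20.9% of all genes tested. The part of these markers was not tested. The Klf2 transcript is 61.6% GC, at the 98.6th percentile. The isotype library that stood highest at 4 h, replicate 3, had a GC tilt of 0.631, and the other isotype libraries at 4 h had -0.840 and -1.59. With a correction for GC content the 24 h difference was -0.44 (adjusted p = 0.462).

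Klf4, the second of the ERK5-regulated pair, was highest in untreated cells and followed a different course in each arm. It stood at 28.3, 20.3 and 24.0 CPM untreated. With isotype it was 7.32, 9.02 and 8.46 CPM at 4 h, 14.9, 13.4 and 14.2 at 12 h, and 9.12, 9.65 and 10.4 at 24 h. With FcMR it was 8.43, 10.4 and 9.50 CPM at 4 h, 5.73, 6.37 and 5.83 at 12 h, and 8.43, 7.24 and 6.46 at 24 h. Every treated library thus lay below every untreated one. By mean the groups ran untreated, isotype 12 h, isotype 24 h, FcMR 4 h, isotype 4 h, FcMR 24 h and FcMR 12 h, and the 4 from isotype 24 h to FcMR 24 h overlapped in turn. The isotype arm came back up at 12 h, by 0.78 on the log2 scale from 4 h (adjusted p = 3.7e-04), while the FcMR arm went down by a log2 change of -0.66 over the same interval (adjusted p = 9.1e-04). Of all genes, 35.2% and 40.3% were called in these time comparisons, which were not rerun with GC correction. Isotype libraries had GC tilts of -0.840, -1.59 and 0.631 at 4 h and 0.595, 0.815 and 0.834 at 12 h. FcMR libraries had -0.411, -0.216 and -0.562 at 4 h and -0.718, 0.720 and 0.817 at 12 h.

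FcMR and isotype libraries overlapped at 4 h (log2 difference 0.20 ± 0.14 SE, adjusted p = 0.384). At 12 h Klf4 was lower with FcMR by a log2 change of -1.25 ± 0.13 (adjusted p = 3.1e-06), with no overlap. At 24 h the difference was -0.40 ± 0.14, again with no overlap, and missed the threshold (adjusted p = 0.05004). It passed without FcMR 24 h replicate 1 (adjusted p = 0.0315), with RLE factors (0.0410) and with a mean of at least 10 counts as the filter (0.0499), and with GC correction the difference was 0.07 (adjusted p = 0.934). Whether the FcMR difference changed with time was tested directly. The joint test over 4, 12 and 24 h gave an adjusted p of 2.9e-04 for Klf4, 1 of 7 members called against 11% of all genes tested. The difference moved by -1.44 ± 0.19 from 4 to 12 h (adjusted p = 4.5e-04) and by 0.85 ± 0.19 from 12 to 24 h (adjusted p = 0.0266), changes called for 5.39% and 1.73% of all genes.

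The Klf4 result depended on how GC content was handled. The median GC over its annotated transcripts is 62.5%, the 99.1st percentile, whereas its longest transcript has 54.6%, the 78.4th. Correcting each library on the median value gave -0.82 at 12 h (adjusted p = 0.154) and a joint adjusted p of 0.364, so both calls ended. Correcting on the longest transcript, an alternative chosen after seeing the data, gave -1.09 (adjusted p = 9.1e-05) and a joint adjusted p of 0.00536. Against untreated, correction on the median also ended calls of Klf4: with isotype it gave -0.66 at 4 h (main value -1.55, adjusted p with correction 0.223) and -0.62 at 24 h (main value -1.31, 0.186). With FcMR it gave -0.51 at 4 h (main value -1.35, 0.258) and -0.55 at 24 h (main value -1.71, 0.217). Klf4 at 12 h stayed called against untreated in both arms. With isotype this 12 h value ran from -1.01 to -0.64 over all alternatives, against -0.66 at 4 h with correction on the median. Whether the isotype rise from 4 to 12 h holds with GC correction was not tested. The 12 h libraries had GC tilts of 0.595, 0.815 and 0.834 with isotype and -0.718, 0.720 and 0.817 with FcMR. The FcMR libraries with tilts of 0.720 and 0.817 held 6.37 and 5.83 CPM of Klf4, and the one with -0.718 held 5.73.

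**Figure D3:**
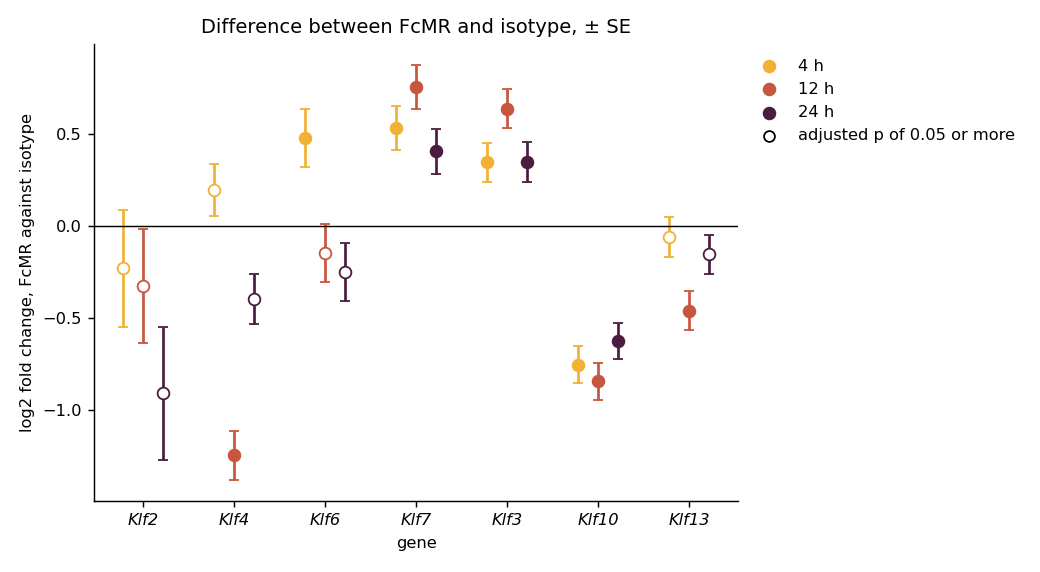
Log2 fold change of FcMR against isotype (vertical axis) for each gene at 4, 12 and 24 h, with bars of 1 SE. Filled points have an adjusted p under 0.05: Klf7, Klf3 and Klf10 are filled at each time, Klf6 at 4 h, and Klf4 (-1.25) and Klf13 (-0.46) at 12 h.

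Klf6, an immediate responder in many cell types, rose at 4 h in both arms and was back near the untreated level by 12 h. Untreated libraries held 316.0, 398.2 and 379.2 CPM. At 4 h isotype libraries held 575.8, 618.5 and 461.5 CPM and FcMR libraries 807.6, 763.5 and 737.3. Their GC tilts, in the same order, were -0.840, -1.59 and 0.631 with isotype and -0.411, -0.216 and -0.562 with FcMR. No FcMR library overlapped an isotype library, and no isotype library overlapped an untreated one. Later isotype libraries held 357.3, 356.9 and 313.1 CPM at 12 h and 350.2, 338.4 and 347.8 at 24 h. FcMR libraries held 381.9, 294.1 and 252.8 CPM at 12 h and 305.1, 342.8 and 223.9 at 24 h, and these 4 groups and the untreated one overlapped in turn when ordered by mean. The tilts of these FcMR libraries were -0.718, 0.720 and 0.817 at 12 h and -0.333, -1.25 and 0.428 at 24 h. Within isotype 4 h, FcMR 12 h and FcMR 24 h, Klf6 thus fell as the tilt rose, but not within FcMR 4 h. The part of the tilt was not tested.

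At 4 h Klf6 was higher than untreated by 0.60 ± 0.16 on the log2 scale with isotype (adjusted p = 0.00614) and by 1.08 ± 0.16 with FcMR (adjusted p = 1.9e-05), against the same untreated libraries. FcMR exceeded isotype by 0.48 ± 0.16 (adjusted p = 0.0412). This call ended when any one of 5 of the 6 libraries compared was left out: isotype replicate 1 (adjusted p = 0.0804) or 3 (0.118), or FcMR replicate 1 (0.136), 2 (0.116) or 3 (0.0728). At 12 h the difference was -0.15 and at 24 h -0.25, neither called. With GC correction on the longest transcript, chosen after seeing the data, both were called (-0.27, adjusted p = 0.0229, and -0.29, 0.0105). The change from 4 to 24 h was -0.73 ± 0.22 (adjusted p = 0.0361), a change called for 13.9% of all genes, while the joint test over time gave an adjusted p of 0.0663. Without FcMR 12 h replicate 1 (adjusted p = 0.0238) or FcMR 24 h replicate 2 (0.0477) the joint test called Klf6. It also called Klf6 with GC correction on the median (0.00667), where it no longer called Klf4 (0.364).

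Klf7, a relative of Klf6 best known for neuronal development, rose with it at 4 h and stayed higher with FcMR. Untreated libraries held 29.5, 33.2 and 32.5 CPM. Isotype libraries held 71.1, 87.1 and 64.0 CPM at 4 h, 36.0, 28.5 and 30.9 at 12 h, and 35.2, 30.6 and 37.1 at 24 h. FcMR libraries held 100.8, 106.2 and 114.4 CPM at 4 h, 60.9, 50.2 and 50.4 at 12 h, and 42.5, 49.5 and 44.1 at 24 h. FcMR stood above isotype with no overlap at each time, and isotype at 12 and 24 h overlapped untreated. By mean, FcMR 4 h, isotype 4 h, FcMR 12 h and FcMR 24 h came first, each apart from the next.

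The log2 differences from isotype were 0.53 ± 0.12 at 4 h (adjusted p = 0.00460), 0.76 ± 0.12 at 12 h (adjusted p = 2.2e-04) and 0.41 ± 0.12 at 24 h (adjusted p = 0.0240). Against untreated, FcMR gave 1.75, 0.76 and 0.52, all called, and isotype gave 1.22 at 4 h, called, and 0.00 and 0.11 later, not called. The 24 h call against isotype ended without isotype replicate 1 (adjusted p = 0.0614) or 2 (0.132) or FcMR replicate 2 (0.118). At 12 h no omission of a library ended it. Klf7 overlaps 3 other annotated genes, Gm26649, Mir6899 and Gm13748, and the library kit does not mark strand, so reads of overlapping exons cannot be assigned with certainty.

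Klf3, the CtBP-recruiting repressor, was highest at 4 h in both arms, as Klf7 was. Untreated libraries held 41.8, 45.4 and 45.5 CPM. Isotype libraries held 69.4, 78.5 and 63.6 CPM at 4 h, 34, 32.1 and 35.3 at 12 h, and 28.9, 30.6 and 26.0 at 24 h. FcMR libraries held 93.5, 85.2 and 90.0 CPM at 4 h, 60.6, 48.9 and 49.1 at 12 h, and 35.3, 40.7 and 32.7 at 24 h. FcMR lay above isotype without overlap at each time, and at 24 h every library of both arms lay below every untreated one. By mean the groups ran FcMR 4 h, isotype 4 h, FcMR 12 h, untreated, FcMR 24 h, isotype 12 h and isotype 24 h, and of these neighbours FcMR 24 h and isotype 12 h overlapped.

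Klf3 differed from isotype by a log2 change of 0.35 ± 0.10 at 4 h (adjusted p = 0.0284), 0.64 ± 0.11 at 12 h (adjusted p = 2.7e-04) and 0.35 ± 0.11 at 24 h (adjusted p = 0.0270). At 12 h it stayed called in all 17 alternatives. At 4 h it ended when isotype replicate 1 (adjusted p = 0.0882) or 3 (0.0889), or FcMR replicate 1 (0.118), 2 (0.0632) or 3 (0.0682), was left out. At 24 h it ended without isotype replicate 1 (0.0722) or 3 (0.135), or FcMR replicate 1 (0.0577) or 2 (0.179). Over the 21 libraries log2 CPM of Klf3 and Klf7 correlated at r = 0.897, of Klf3 and Klf6 at 0.818 and of Klf3 and Klf13 at -0.906. These are descriptions over libraries that share groups and times and differ in GC tilt. The Klf3 locus overlaps Gm20033 on the other strand and C230096K16Rik.

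Summed stroma and endothelium markers also stood higher with FcMR, at 118 to 129 CPM against 61.2 to 65.1 with isotype at 4 h, 62.8 to 69.5 against 39.3 to 44.7 at 12 h, and 35.4 to 36.1 against 26.8 to 33.7 at 24 h. Most of that sum was Kdr, at 108 CPM with FcMR at 4 h against 52.1 with isotype. The endothelial adhesion gene Cdh5 was at 1.83 to 5.55 CPM in group means. Pdgfrb, a receptor of pericytes and fibroblasts, was higher with FcMR at each time, at 3.78 against 1.91 CPM with isotype at 4 h, 11.5 against 1.58 at 12 h and 5.16 against 0.187 at 24 h. Pecam1 was at 2.14 to 8.58 CPM and Col1a1 at 0.579 to 1.11 in group means. The collagen gene Col1a2 was at 0 counts in every FcMR library at 4 h and had at most 3 counts elsewhere. Their part in the Klf3 and Klf7 differences was not tested.

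Klf10, first described as an early gene induced by TGF-beta, was lower with FcMR at each time. Untreated libraries held 47.7, 54.8 and 56.9 CPM. Isotype libraries held 47.1, 43.7 and 43.0 CPM at 4 h, 37.1, 33.3 and 34.9 at 12 h, and 39.1, 36.7 and 35.4 at 24 h. FcMR libraries held 28.4, 24.5 and 26.5 CPM at 4 h, 21.6, 19.4 and 17.8 at 12 h, and 21.3, 25.2 and 25.6 at 24 h. Every FcMR library, of any time, lay below every isotype library. By mean untreated came first, then isotype 4 h, 24 h and 12 h and FcMR 4 h, 24 h and 12 h, and within this order isotype 24 h overlapped isotype 12 h and the 3 FcMR groups overlapped in turn.

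The log2 differences from isotype were -0.75 ± 0.10 at 4 h (adjusted p = 4.2e-05), -0.85 ± 0.10 at 12 h (adjusted p = 8.1e-06) and -0.62 ± 0.10 at 24 h (adjusted p = 1.5e-04). The joint test did not call a change over time (adjusted p = 0.578). Isotype itself was lower than untreated at 12 h (-0.60) and 24 h (-0.52), both called, and at 4 h by -0.25 (adjusted p = 0.0525), not called. FcMR against untreated gave -1.01, -1.44 and -1.14, all called. No omission of a library ended the call against isotype at any time. The granulocyte marker sum, mostly Ngp, and the macrophage marker sum, mostly Lyz2, were lower with FcMR at 24 h too. The macrophage marker Adgre1 was higher, as was the mean of the granulocyte marker Camp. Of the 8 granulocyte markers, 2 were called at 24 h, against 20.9% of all genes tested. The part of these markers in the Klf10 difference was not tested.

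One scaling did end it at both earlier times. The authors' normalized table divides each count by a factor that differs by gene as well as by library. For Klf10 that factor was off the library's median by -0.57 on the log2 scale in FcMR 4 h replicate 3 and by -0.95 in FcMR 12 h replicate 2. On the authors' scale Klf10 was 345, 306 and 488 with FcMR against 550, 491 and 466 with isotype at 4 h, and 316, 455 and 213 against 387, 416 and 429 at 12 h. With those factors the difference was -0.43 at 4 h (adjusted p = 0.214), -0.35 at 12 h (adjusted p = 0.360) and -0.68 at 24 h (adjusted p = 0.0324). The calls of isotype against untreated ended as well, at -0.47 for 12 h (adjusted p = 0.0843) and -0.38 for 24 h (adjusted p = 0.164).

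**Figure D4:**
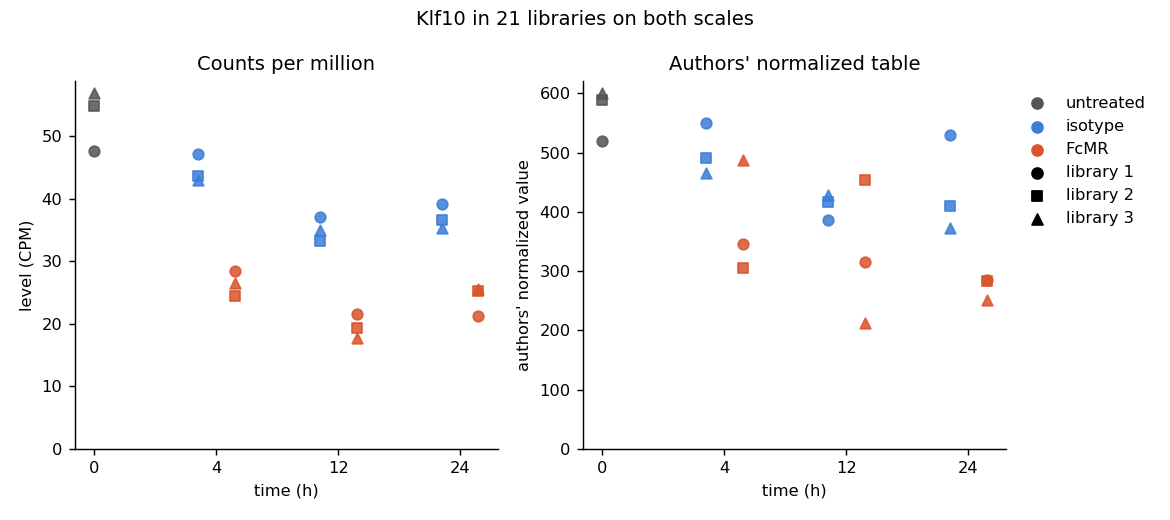
Klf10 in each library by time, as TMM-scaled CPM (left) and as the authors' normalized value (right), with symbols for library number. On the left every FcMR point lies below every isotype point, and on the right library 3 of FcMR at 4 h (488) and library 2 of FcMR at 12 h (455) rise into or above the isotype range.

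Klf13, known in lymphocytes as an activator of the chemokine gene Ccl5, ran opposite to Klf3 over time. Untreated libraries held 73.5, 78.0 and 84.1 CPM. Isotype libraries held 66.4, 58.5 and 74.4 CPM at 4 h, 93.8, 90.8 and 93.8 at 12 h, and 95.6, 91.3 and 102.5 at 24 h. FcMR libraries held 58.3, 63.9 and 69.9 CPM at 4 h, 59.6, 69.8 and 73.0 at 12 h, and 90.3, 75.1 and 95.3 at 24 h. The arms overlapped at 4 and 24 h and were apart at 12 h. By mean the groups ran isotype 24 h, isotype 12 h, FcMR 24 h, untreated, FcMR 12 h, isotype 4 h and FcMR 4 h, with a gap between untreated and FcMR 12 h and overlap at every other step.

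The log2 difference from isotype was -0.06 ± 0.11 at 4 h, -0.46 ± 0.11 at 12 h (adjusted p = 0.00528) and -0.15 ± 0.11 at 24 h. The isotype arm rose by 0.48 from 4 to 12 h (adjusted p = 0.00258), and the FcMR arm rose by 0.36 from 12 to 24 h (adjusted p = 0.0212, with 23.8% of all genes called). Neither rise was rerun with GC correction. Isotype libraries had GC tilts of -0.840, -1.59 and 0.631 at 4 h and 0.595, 0.815 and 0.834 at 12 h. Isotype against untreated ran from -0.34 to 0.39 at 4 h and from 0.07 to 0.30 at 12 h over all alternatives. The joint test of the difference over time did not pass (adjusted p = 0.181). Klf13 has a transcript GC of 57.9%, the 90.8th percentile, and GC correction on the median gave -0.17 at 12 h (adjusted p = 0.627) and on the longest transcript -0.27 (adjusted p = 0.138). The FcMR libraries at 12 h with GC tilts of 0.720 and 0.817 held 69.8 and 73.0 CPM, above the 59.6 of the library with -0.718 and below all isotype libraries. Klf13 overlaps Gm27252 and the protein-coding gene E030018B13Rik on the other strand.

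The isotype comparison with untreated cells shows what time and control protein did without FcMR. At 4 h 4 members were called (Klf3, Klf6 and Klf7 higher, Klf4 lower), against 35.6% of all genes tested (20.4% higher, 15.2% lower). At 12 h 4 were called, all lower (Klf2, Klf3, Klf4 and Klf10), against 41.6% (22% higher, 19.6% lower). At 24 h 5 were called (the same 4 lower and Klf13 higher), against 42.2% (21.3% higher, 20.9% lower). FcMR against the same untreated libraries called 7 at 4 h (3 higher, 4 lower), 4 at 12 h (1 higher, 3 lower) and 5 at 24 h (1 higher, 4 lower), against 48.2% (22.3% higher, 25.9% lower), 48.1% (24.7% and 23.4%) and 51.4% (26% and 25.4%) of all genes. The calls against untreated that single libraries decided were those of Klf3 and Klf13 and, at 4 h, of Klf2 and Klf10. Klf3 at 24 h with FcMR (-0.29, adjusted p = 0.0318) was not called without untreated replicate 2 or 3 or FcMR replicate 1 or 3 (adjusted p = 0.0837 to 0.221). Klf3 with isotype at 12 h was not called without isotype replicate 2 (adjusted p = 0.0545), and with FcMR at 12 h it was called without FcMR replicate 2 or 3 (0.0364 and 0.0388). Klf13 with isotype at 24 h (0.30, adjusted p = 0.0338) was not called without untreated replicate 1 or 2 or isotype replicate 3 (0.121, 0.0781 and 0.0699). Klf13 at 4 h with FcMR (-0.30, adjusted p = 0.0304) was not called without untreated replicate 2 or 3 or FcMR replicate 1 or 2 (0.0609 to 0.142), and with GC correction it changed sign (0.16). Klf13 was called without isotype 4 h replicate 3 (isotype at 4 h, 0.0312) and without FcMR 24 h replicate 2 (FcMR at 24 h, 0.036). For isotype at 4 h the Klf13 value was -0.24 in the main fit, not called, and ran from -0.34 to 0.39 over all alternatives. At 24 h with FcMR, GC correction moved it from 0.14 to 0.78 (adjusted p = 0.00323), or 0.53 on the longest transcript (0.00126), and both were called. With the authors' factors Klf3 at 24 h with FcMR was -0.05 (adjusted p = 0.780) and Klf13 at 24 h with isotype had an adjusted p of 0.0559. GC correction called Klf6 lower with FcMR at 24 h (-0.37, adjusted p = 0.0193), where the main fit did not (-0.33, 0.0907). Klf10 with isotype at 4 h was called without untreated replicate 1 (0.0272). Isotype and untreated differ in time as well as in treatment, and these cannot be told apart.

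Among the other members of the family, Klf9 alone was called between FcMR and isotype. Of 10 other Kruppel-like genes listed, 7 were in the table and 5 were tested. Klf9, a glucocorticoid-responsive member, was lower with FcMR by -0.51 ± 0.11 on the log2 scale at 12 h (adjusted p = 0.00207) and -0.69 ± 0.11 at 24 h (adjusted p = 1.2e-04), from isotype means of 31.9 ± 2.30 and 32.9 ± 0.876 CPM (SD, n = 3). At 4 h none of the 5 was called, against 17.7% of all genes. At 12 and 24 h 1 of the 5 was called, against 16.1% and 20.9% of all genes. Klf8, Klf11, Klf12 and Klf16 were not called in these comparisons. The median of the 5 was 0.03, -0.51 and -0.23 at 4, 12 and 24 h, against -0.07, -0.02 and 0.01 over all genes.

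The related Sp factors bind the same GC boxes. Of 9 listed, 7 were in the table and 5 tested. Of these, Sp1, Sp2, Sp3 and Sp4 were not called at any time between FcMR and isotype. Sp6, named after its values were seen, passed the expression filter through the FcMR libraries, where it is high, so its call counts for nothing here. It stood at 0.920 to 2.42 CPM with FcMR at 4 h, 3.88 to 4.71 at 12 h and 0.411 to 1.10 at 24 h. All untreated and all 24 h isotype libraries had 0 counts, and the 4 h isotype libraries at most 2.

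Of 8 genes of the ERK5 and MEF2 axis, 7 were tested. At 4 h 1 was called, the kinase gene Map3k3, lower by a log2 change of -0.30 ± 0.09 (adjusted p = 0.0226). Mef2c, the MEF2 factor of myeloid and muscle cells, was lower at 12 h by -0.96 ± 0.20 (adjusted p = 0.00260) and at 24 h by -1.54 ± 0.20 (adjusted p = 1.4e-05). It stood at 15.4 to 20.7 CPM with isotype and 6.33 to 6.49 with FcMR at 24 h. Mef2a, the other gene called at 24 h, was lower by -0.56. Mapk7, which encodes ERK5, was not called at any time. In all, 1, 1 and 2 of the 7 were called at 4, 12 and 24 h, against 17.7%, 16.1% and 20.9% of all genes. The axis had medians of -0.10, -0.19 and -0.22, against -0.07, -0.02 and 0.01 over all genes.

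All 16 cofactor and ubiquitin ligase genes were tested, and 2 were called at each time, 1 in each direction, a share no larger than over all genes (17.7%, 16.1% and 20.9%). At 4 h Hdac1, a histone deacetylase, was higher by 0.41 ± 0.07 and Sin3a, the corepressor scaffold used by Klf10 and Klf13, lower by -0.30 ± 0.09 on the log2 scale. At 12 h the acetyltransferase gene Kat2b was higher by 0.51 ± 0.15 and the coactivator gene Ep300 lower by -0.26 ± 0.06. At 24 h Sin3a was higher by 0.32 ± 0.09 and Ep300 lower by -0.20 ± 0.06. The CtBP genes that Klf3 works with, Ctbp1 and Ctbp2, were not called.

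Among 24 genes described elsewhere as targets of the family, 22 were tested, and 7 were called at 4 h (4 higher, 3 lower), 10 at 12 h (4 higher, 6 lower) and 9 at 24 h (4 higher, 5 lower), against 17.7%, 16.1% and 20.9% of all genes. Thbd, encoding the anticoagulant thrombomodulin that Klf2 and Klf4 are known to activate, was the lowest called gene at 4 h, by log2 difference (-1.31 ± 0.30, adjusted p = 0.00551) and 12 h (-1.74 ± 0.25, adjusted p = 6.1e-05). At 24 h the lowest was Ccnd1, the cyclin D gene, at -2.40 ± 0.23 (adjusted p = 5.4e-07). Ccl5, named after its values were seen, was higher by 1.79, 1.66 and 1.74 at the times when Klf13 differed by -0.06, -0.46 and -0.15. These genes have many other regulators, and no link to a member was tested.

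All 16 immediate early genes, the class to which Klf6 and Klf10 are often assigned, were tested. At 4 h 4 were called (2 higher, 2 lower), at 12 h 9 (2 higher, 7 lower) and at 24 h 7 (3 higher, 4 lower), against 17.7%, 16.1% and 20.9% of all genes. Fos, a subunit of AP-1, was lower by a log2 change of -0.93 ± 0.18 at 4 h (adjusted p = 0.00137) and -2.15 ± 0.18 at 12 h (adjusted p = 1.3e-07). The survival gene Ier3 was higher at 4 h by 0.90 ± 0.29 (adjusted p = 0.0408). The nuclear receptor gene Nr4a2 was higher by 1.37 ± 0.21 at 12 h and 1.5 ± 0.20 at 24 h, and Myc was lowest at 24 h (-1.91 ± 0.30, adjusted p = 1.3e-04).

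Over the 21 libraries, 8805 genes were searched for the patterns most like each member's by Pearson's r of log2 CPM, as a description. Klf3 was closest to Zc3h12c (r = 0.988), Plek (0.985) and Ubxn2a (0.983), which were higher with FcMR at 12 h by 0.81, 1.27 and 0.59. For Klf7 the nearest were Kpna3 (0.974), Tfec (0.973) and F11r (0.971), and for Klf6 Prkx (0.974), Elmo1 (0.957) and Dock10 (0.957). Klf10 was closest to Il6st (0.969), Cd300a (0.940) and Bach1 (0.935), whose 12 h log2 differences were -0.88, -1.29 and -0.76. Klf4 was closest to Tiam1 (0.932), Flnc (0.899) and Fcgrt (0.896). Klf13 was close to Tspan4 (0.928) and Mvb12b (0.923), and Klf2 closest to Gm10275 (0.931), Kdm2b (0.927) and Padi4 (0.920).

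After removing group means, the same correlations were 0.944 for Klf6 with Prkx, 0.880 for Klf13 with Tspan4 and 0.750 for Klf3 with Zc3h12c. For Klf4 with Tiam1 the value was 0.251 and for Klf10 with Il6st 0.503. Each of these values was lower than over all libraries, least so for Klf6 and Klf13. Removing group means leaves the GC tilt in place where libraries of a group differ in it. Within isotype 4 h, FcMR 12 h and FcMR 24 h, Klf13 rose and Klf6 fell as the tilt rose, and within FcMR 4 h neither did. The part of the tilt in these correlations was not tested.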

How the data were processed

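RNA-seq libraries (TruSeq RNA v2, 75 bp single-end, per the labels' protocols) were grouped by title into 7 groups of 3. The authors' raw table holds estimated counts per gene, deposited as whole numbers. The authors' normalized table holds a signal, each count divided by a factor per gene and library, and was used for Klf10 and for one alternative scaling. The submitters' processing notes name CASAVA 1.8.2, kallisto 0.44.0, DESeq2 and builds mm10 and GRCm38, with no role or order. Estimated counts can move reads between similar genes.

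IDs were matched without version to GENCODE M21 (GRCm38), which gave a symbol for 23187 of 23250 genes. edgeR 4.0.16 (R 4.3.3) fitted all 21 libraries, 1 coefficient per group, with TMM factors and filterByExpr (minimum count 10), leaving 13468 genes. Calls needed a Benjamini-Hochberg adjusted p-value under 0.05 over all of them. SE is the size of the log2 change divided by the root of F. The fit was tested on simulated data.

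Replicate libraries correlated at r = 0.92 to 0.987 and were kept as separate samples, since chi-square of their counts was at least 3.03 per degree of freedom. The members, gene lists and tests were chosen with earlier results of these data known. Besides all members, the text names the called gene with the highest and the lowest log2 change of each list at each time (average log2 CPM of at least 1), and the 3 genes most correlated with each member (at least 3). Some genes that this rule names are not reported here. Promoters come from RefSeq. Alternatives were other scalings, filters, DESeq2 1.42.0, GC correction (loess, span 0.3), a replicate block, fewer libraries and leaving out each library. No label says that replicate numbers pair libraries. Same-numbered deviations of FcMR and isotype correlated at -0.0708, 0.106 and 0.0138 at 4, 12 and 24 h. These values cannot settle whether the numbers pair libraries, since deviations also carry differences such as GC tilt.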

Additional observations from a re-analysis of the deposited data

Results flagged for a closer look

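The FcMR difference of Klf4 was not the same at the 3 times, by the joint test (edgeR's quasi-likelihood test, adjusted p = 2.9e-04). It moved by -1.44 on the log2 scale from 4 to 12 h and by 0.85 from 12 to 24 h. The isotype arm stood at 8.27, 14.1 and 9.73 CPM at 4, 12 and 24 h and the FcMR arm at 9.44, 5.98 and 7.38, so both arms contributed to the 12 h gap in CPM. With GC correction on the median the joint test did not call Klf4 (adjusted p = 0.364). The 12 h difference was then -0.82 and not called either (adjusted p = 0.154).

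The FcMR difference of Klf6 moved by -0.73 on the log2 scale from 4 to 24 h (adjusted p = 0.0361). Its arms were 769.5 and 551.9 CPM at 4 h and 290.6 and 345.5 CPM at 24 h, FcMR first.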

How the results depend on the processing

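Of the 1274 values for single members under an alternative, 2 called ones changed sign, and 28 others changed sign without a call under either setting. Both were Klf13, FcMR against untreated at 4 h, at 0.16 with GC correction and 0.15 with GC correction and the replicate block. Members called, FcMR against isotype, at 4 h were 2 with the authors' factors, 1 with only the libraries compared in the fit, and 2 to 4 without 1 library. At 12 h they were 3 with GC correction, with or without the replicate block, and 5 to 5 without 1 library. At 24 h they were 1 with the authors' factors and 1 with only the libraries compared, and 1 to 3 without 1 library, 1 without isotype replicate 1 or FcMR replicate 2. For isotype against untreated at 24 h the authors' factors gave 3, and for FcMR against untreated at 4 h GC correction gave 4, with or without the block. The joint test over time called 2 members (Klf4 and Klf6) with DESeq2, the replicate block, the authors' factors, GC correction on the longest transcript, or without FcMR 12 h replicate 1 and isotype 4 h replicate 3, whose titles are numbered out of order, and 1 to 2 without 1 library. The other counts stayed within 1.5 times. The causes were not tested. With only the libraries compared in the fit, Klf7 at 4 h had an adjusted p of 0.0714.

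The replicate block alone left 4, 5 and 3 members called between FcMR and isotype. The labels do not say what the shared numbers mark.

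Over all genes at 4 h, RLE factors gave 1412 higher and 839 lower against 1161 and 1229 with TMM, DESeq2 1509 and 835, the authors' factors 1243 and 608, no filter 1331 and 439, only the libraries compared 628 and 240, GC correction 1832 and 1981, and the fit without the libraries numbered out of order 2093 and 1805. GC correction called 3284 genes at 12 h and 3084 in the joint test, which called 2616 without the libraries numbered out of order and 925 with no filter.

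Klf2 had the lowest counts of the members, 10 to 225 per library. With 3 libraries a group, Klf3 and Klf6 at 4 h and Klf3, Klf4 and Klf7 at 24 h lie near the threshold.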
